A study of Homo sapiens with 2 samples.

Results

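Readthrough gene models are annotated genes whose transcripts run from one gene into the next gene of the same strand and join exons of both. The authors' deposited table held 128 rows whose gene description contained the word readthrough, of 19029 genes in all. Of these 128 models, 85 carried the joined symbols of their neighbours, such as SENP3-EIF4A1, and 43 carried a clone-based symbol, such as AC092143.1, described as a readthrough of MC1R and TUBB3. For 25 models the description added that the transcript is a candidate for nonsense-mediated decay (NMD).

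The models were described in 2 RNA-seq libraries of BT549, an established line of human breast cancer cells with a mesenchymal phenotype. One library came from cells of the genotype SNHG15 overexpression, which raises a long non-coding RNA whose intron holds a small nucleolar RNA, and the other from cells with the vector control. Both cultures were grown in the same medium, and the labels do not say whether either is a clone or a pool. With 1 library per group, differences have no replicate check and carry no p-value. The 95% intervals of ratios and shares, and the floors, cover counting error only.

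A readthrough transcript arises when RNA polymerase passes the cleavage and polyadenylation site that would end the upstream gene and continues into the gene behind it. The joined precursor is then spliced, often from the penultimate exon of the upstream gene to the second exon of the downstream gene, which skips the sequences that end the first and begin the second. Some such transcripts encode fusions of both proteins, while others carry a premature stop codon and are substrates of NMD.

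A read counts for a readthrough model without doubt where it crosses a splice junction that neither neighbour has. In GENCODE 29 on GRCh38, all 128 models were matched by identifier, 121 of them at the locus given in the deposited table. Of these, 127 had at least 1 intron of their own, and 107 had an annotated junction that leads from an exon of the upstream gene toward the downstream gene. One such junction is given here, in the sense of the transcript, for 8 of the 14 models that differed beyond 2-fold between the libraries, 4 higher and 4 lower, picked after their values were seen, and for the most abundant model. The last 15 bases before the intron are in lower case and the first 15 bases after it in capitals.
ATP6V1G2-DDX39B, intron chr6:31542149-31546108, minus strand: agcaagcagcaggcgACAGGCATTTTCCAA
ANKHD1-EIF4EBP3, intron chr5:140539084-140542171, plus strand: actgatgcccagcagGCCAGTCTGCTTCCT
SYS1-DBNDD2, intron chr20:45365687-45408459, plus strand: caacgccctcacctgGAGCTGACATGGACC
AC092143.1, intron chr16:89920738-89932570, plus strand: ctcctgcaaaaggagTTCTGGGAAGTCATC
SENP3-EIF4A1, intron chr17:7571480-7572283, plus strand: ctgcaaactcactgtCCAGGGGAATCCTCC
ARPIN-AP3S2, intron chr15:89889141-89903215, minus strand: gaggacgaggagtggCCAGAAGAAATTCAA
ATP5MF-PTCD1, intron chr7:99435269-99460085, minus strand: gagcgtttcaaagagGCCCTGGAGGGACAG
ISY1-RAB43, intron chr3:129095170-129130087, minus strand: cagaaggctcctgggCTGCAGATCTGGGAC
NME1-NME2, intron chr17:51161273-51166826, plus strand: catacaagttggcagGACCATGGCCAACCT

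Each of these introns belonged to the readthrough model alone among the same-strand genes that overlap it. In ANKHD1-EIF4EBP3 the capitals lie in an exon that is not part of EIF4EBP3, and in the other models they lie in an exon of the downstream gene. The deposited table gives counts per gene and not per junction, so the number of reads that cross these sequences is not known here.

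Most of a readthrough model's sequence is shared with its neighbours. Merged exons of the 128 models spanned 401 to 11385 bases, with a median of 2682. A median of 122 bases per model, or 4.16%, lay outside the exons of the overlapping same-strand genes. For 40 models no exonic base was their own, and for 14 at least 50% was. Those 40 models still held 13696 counts in the SNHG15 library against 14968 in the vector library. The sources used here do not say how reads of shared exons were assigned or whether the libraries kept strand, so the division of counts within a locus is uncertain throughout.

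The 128 models lay on 21 chromosomes, most often on chromosomes 17 and 19, with 13 each. Their neighbours were mostly close. Both an upstream and a downstream partner were placed for 109 models. The partners overlapped in 12, lay up to 10000 bases apart in 66 and farther apart in 31, with a median gap of 2636 bases. The 12 include AC004951.4, whose upstream and downstream partners both carry the symbol POLR2J4. A model began within 1000 bases of the start of its upstream partner in 77 of the 109. It ended within 1000 bases of the end of its downstream partner in 63. By gene type 107 of the 128 were protein-coding, and 68 had at least 1 transcript annotated as a substrate of NMD. On the same strand, 263 other genes of the table overlapped a readthrough model by at least 1 base, 230 of them named partners. One model, AC010531.6, overlapped none, and its description names it as antisense to a readthrough.

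**Figure D1:**
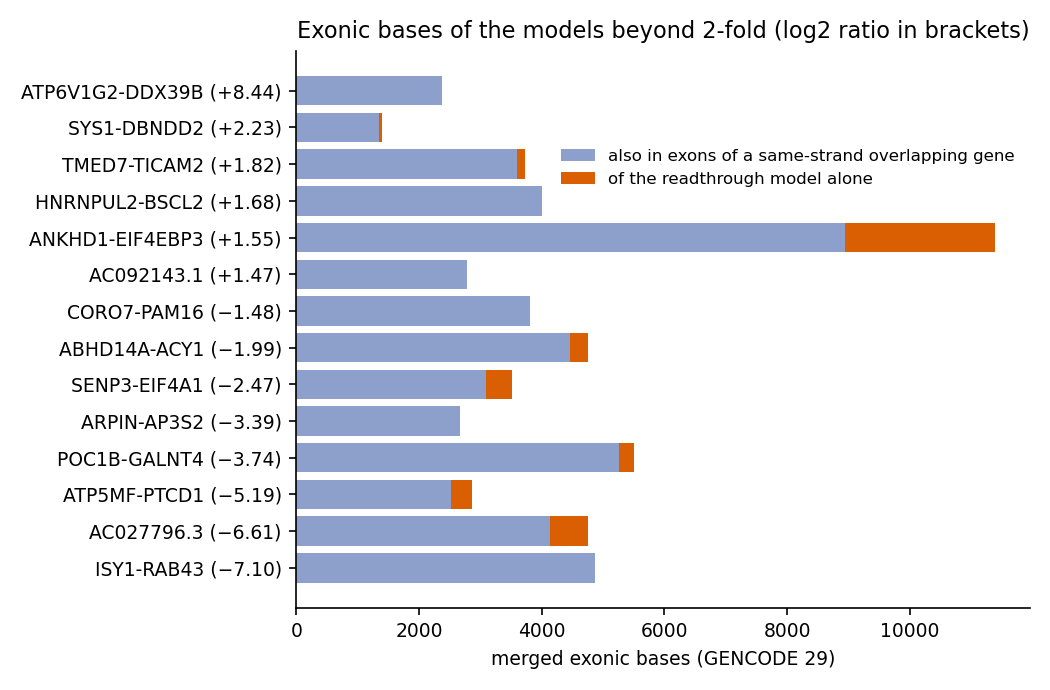
Merged exonic bases (horizontal axis, GENCODE 29) of the 14 models beyond 2-fold, from the highest at the top to the lowest at the bottom, with the log2 ratio (SNHG15 over vector) in brackets. Blue bars are bases shared with exons of an overlapping same-strand gene and orange bars are bases of the model alone, which are absent from 5 of the 14 and amount to 1 base in ARPIN-AP3S2.

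The libraries held 16570496 counts in SNHG15 cells and 20799017 counts in vector cells. The SNHG15 gene itself had 34450 counts in the SNHG15 library against 466 counts in the vector library, 85.6-fold higher (78.1 to 93.98). VIM, the mesenchymal filament protein, stood at 1998 CPM in the SNHG15 library against 1993 in the vector library (CPM are counts relative to the TMM-scaled library total), and the epithelial cadherin CDH1 at 12 counts against 11. The other mesenchymal markers were unequal. The cadherin CDH2 had 360 counts in the SNHG15 library against 79 in the vector library, 5.28-fold higher (4.12 to 6.82), SPARC, a matrix glycoprotein, was 1.78-fold higher (1.74 to 1.82), and fibronectin (FN1) was 1.80-fold lower, a ratio of 0.555 (0.542 to 0.568). Their part in the differences of the readthrough models was not tested. ERBB2 was not low, at 161.1 CPM in the SNHG15 library against 183.8 in the vector library. The hormone receptors and the markers of other cell types were not analysed here. In bulk RNA, fewer cells with a transcript and less of it per cell cannot be told apart.

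Readthrough models were mostly rare, and a few held most of the counts. All 128 together had 26653 counts in the SNHG15 library against 40511 counts in the vector library, 0.161% and 0.195% of each total. The median model had 18 counts in the SNHG15 library against 20.5 in the vector library. The 10 models with the most counts held 72.7% of the readthrough counts in SNHG15 cells and 75.1% in vector cells. A count was present in both libraries for 102 models, while 16 were at 0 in the SNHG15 library and 10 at 0 in the vector library.

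The most abundant was NME1-NME2, which joins a pair of nucleoside diphosphate kinases. It had 4816 counts in the SNHG15 library against 5873 in the vector library, and its share of the locus was 20.4% (19.9 to 20.9) and 21.8% (21.3 to 22.2). Per kilobase of merged exons it stood at 224.9 CPM in SNHG15 cells and 236.9 CPM in vector cells. NME2 was above it in both libraries (276.0 and 278.7 CPM per kilobase) and NME1 below it (105.8 and 94.2). The NME1-NME2 locus as a whole had a ratio of 1.01 (0.996 to 1.03) between the libraries.

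RTEL1-TNFRSF6B joins a helicase of telomere maintenance to decoy receptor 3, a soluble inhibitor of death ligands, and is an NMD candidate. It had 2996 counts in the SNHG15 library against 5822 in the vector library, 1.68-fold lower (1.61 to 1.76). RTEL1 alone had 743 counts in the SNHG15 library against 1158 in the vector library, and TNFRSF6B had 1 count in each. The readthrough model therefore held 80.1% of the locus counts in SNHG15 cells and 83.4% in vector cells, and the whole locus had a ratio of 0.620 (0.596 to 0.645). Of the bases of this model, 37.7% were its own.

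TMEM189-UBE2V1 joins a lipid desaturase to a ubiquitin-conjugating enzyme variant, and had 3173 counts in the SNHG15 library against 3379 in the vector library. Its share was 56.9% (55.6 to 58.2) in SNHG15 cells and 49.6% (48.4 to 50.7) in vector cells, although no base of it is its own. UBE2V1 alone had 667 counts in the SNHG15 library against 1547 in the vector library. SPECC1L-ADORA2A, an NMD candidate that reaches an adenosine receptor gene, had 2001 counts in the SNHG15 library against 3122 in the vector library, 1.35-fold lower (1.27 to 1.43), with shares of 77.3% and 72.8%. Both neighbours of SPECC1L-ADORA2A were lower too, SPECC1L 1.76-fold (1.42 to 2.20) and ADORA2A 1.71-fold (1.53 to 1.92).

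Shares near 25% with little difference were seen in RBM14-RBM4, which joins a pair of RNA-binding proteins (1207 counts in the SNHG15 library against 1436 in the vector library, 23.4% and 25.01% of the locus). RAB4B-EGLN2, which joins an endosomal GTPase to a prolyl hydroxylase of the hypoxia pathway, had 892 counts in the SNHG15 library against 913 in the vector library. Its share was 35.3% in SNHG15 cells and 27.3% in vector cells. Over 65 compared models with at least 2 partners, the readthrough model stood above every partner in CPM per kilobase in 11 in the SNHG15 library and in 12 in the vector library.

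Of the 128 models, 67 had a mean of at least 1 CPM and were compared. The other 61 reached at most 24 counts in the SNHG15 library against 21 in the vector library. Beyond 2-fold, meaning that the whole 95% interval of the CPM ratio lay past 2-fold, were 6 models higher and 8 lower in the SNHG15 library, or 20.9% of the 67. Among all 12934 genes compared, 2.2% were beyond 2-fold higher and 2.45% lower, 4.65% together. The median log2 ratio was −0.25 over the models (order-statistic interval −0.40 to 0.18) and 0.02 over all genes compared. That interval comes from the ranks of the 67 models, which are not replicates, and does not measure counting error. The median size of the log2 ratio was 0.69 for the models and 0.34 for all genes.

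Differences were smaller in the genes around the models. Of 207 compared genes that overlap a readthrough model, 10 (4.83%) were beyond 2-fold, with a median size of the log2 ratio of 0.34. Among 1751 other compared genes that overlap some gene of their own strand, 101 (5.77%) were beyond 2-fold, with a median size of 0.36. When the counts of each readthrough locus were added up, the median size of the log2 ratio was 0.24, and 0 of the 67 loci were beyond 2-fold. A model with a small share of its locus cannot move that sum far. The overlapping genes without the model give a separate reading, with a median size of 0.31 over 66 loci.

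**Figure D2:**
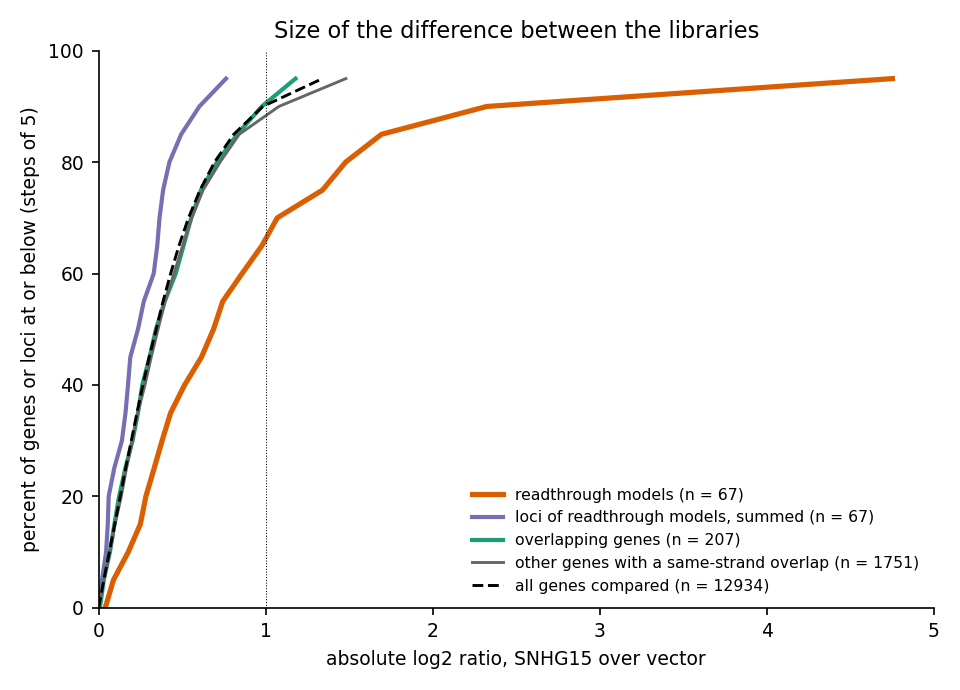
Cumulative share of genes or loci (vertical axis, percent, in steps of 5 up to 95) by the size of the log2 ratio between the SNHG15 and the vector library (horizontal axis), for readthrough models, their summed loci, the genes that overlap them, other genes with a same-strand overlap and all genes compared. The median is 0.69 for the readthrough models and 0.24 for their summed loci, and the dotted line marks 2-fold.

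The shares beyond 2-fold were also set side by side within bands of abundance. Among models with a mean of 5 to 10 CPM, 5 of 14 were beyond 2-fold (35.7%), against 6.11% of 229 other genes with a same-strand overlap. From 10 to 20 CPM the shares were 18.2% of 11 models and 7.11% of 239 genes, and from 20 to 50 CPM 33.3% of 6 models and 5.18% of 309 genes. From 2 to 5 CPM they were 13.3% of 15 models and 6.46% of 294 genes, and between 1 and 2 CPM 7.69% of 13 models and 7.88% of 203 genes. Above 50 CPM, 1 of 8 models was higher and 1 lower, against 3.98% of 477 genes. The median size of the log2 ratio was closest from 10 to 20 CPM, at 0.38 for the models and 0.34 for the other genes. It was 0.75 and 0.51 from 1 to 2 CPM, 0.53 and 0.46 from 2 to 5, and 0.57 and 0.37 from 5 to 10. From 20 to 50 CPM it was 0.78 and 0.33, and above 50 CPM 0.59 and 0.28. Models with no exonic base of their own were called in 5 of 23 cases, and models with such bases in 9 of 44. Of the 14 NMD candidates compared, 3 were higher and 1 was lower, and of the other 53 models 3 were higher and 7 lower.

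The direction of each model was set beside that of its neighbours. In 36 of the 66 loci with overlapping genes, the ratio of the model and the ratio of the other genes lay on opposite sides of 1, and in 30 on the same side. Of the 14 models beyond 2-fold, 8 were opposite to the summed other genes of their locus. These counts of directions were not made over other genes with a same-strand overlap, so they show nothing particular to the readthrough models. The ratio of the whole locus stayed between 0.597 and 1.97 in all 14.

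**Figure D3:**
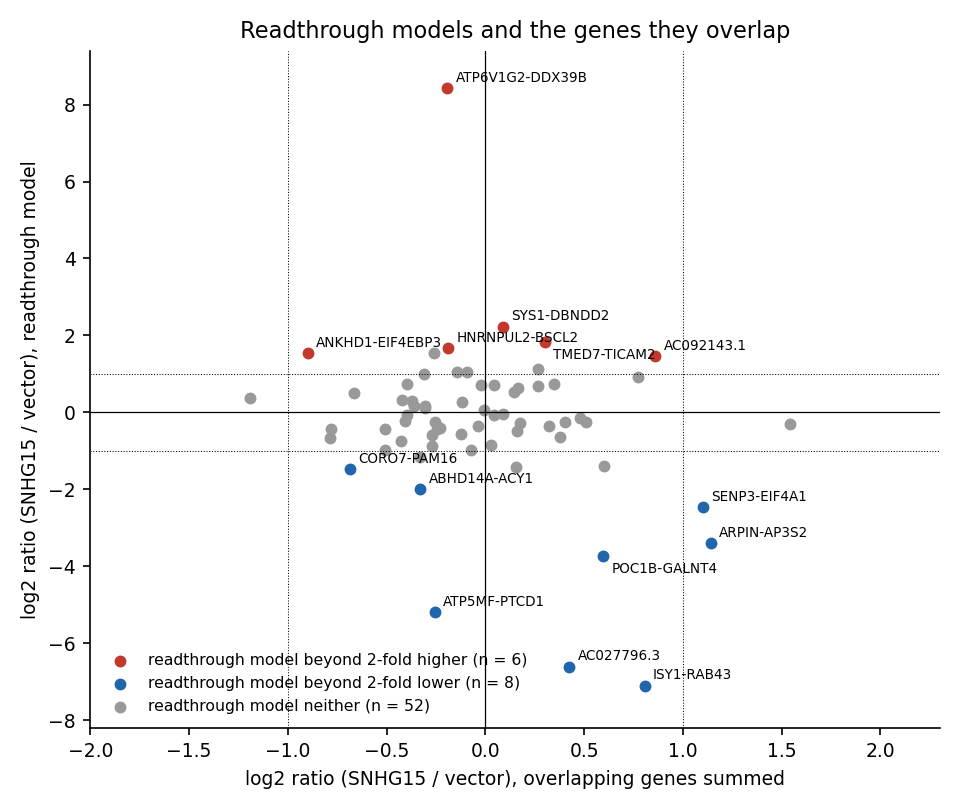
Log2 ratio (SNHG15 over vector) for each of 66 compared readthrough models (vertical axis) against the log2 ratio of the summed genes that overlap it (horizontal axis), with a prior count of 2 added on both axes. The 14 models beyond 2-fold are named, and dotted lines mark 2-fold: the vertical axis runs from −7.10 for ISY1-RAB43 to 8.44 for ATP6V1G2-DDX39B, while 2 of the 14 sums of overlapping genes, at SENP3-EIF4A1 and ARPIN-AP3S2, are past 2-fold.

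SENP3-EIF4A1, the largest of the lower models by counts, joins a SUMO protease to the helicase of translation initiation and is an NMD candidate. It had 908 counts in the SNHG15 library against 5832 in the vector library, 5.55-fold lower (5.17 to 5.96). All other genes of the locus were higher: SENP3 had 3400 counts in the SNHG15 library against 2068 in the vector library, 1.90-fold higher (1.80 to 2.01). EIF4A1 had 2855 counts in the SNHG15 library against 1466 in the vector library, 2.25-fold higher (2.12 to 2.40). The overlapping gene AC016876.3 had 884 counts in the SNHG15 library against 313 in the vector library. The share of the readthrough model was 11.3% (10.6 to 12.0) in SNHG15 cells against 60.3% (59.3 to 61.2) in vector cells, while the sum over the locus had a ratio of 0.962 (0.934 to 0.992).

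The order within the locus turned as well. Per kilobase of merged exons, SENP3-EIF4A1 stood at 14.95 CPM in the SNHG15 library, below SENP3 (53.7) and EIF4A1 (31.1). In the vector library it stood at 83.0 CPM per kilobase, above SENP3 (28.2) and EIF4A1 (13.8). Of the 3519 merged exonic bases of the model, 422 were its own.

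ARPIN-AP3S2 joins the gene of an inhibitor of the Arp2/3 complex, which builds branched actin, to that of a subunit of the AP-3 adaptor of vesicle traffic. It had 71 counts in the SNHG15 library against 882 in the vector library, 10.7-fold lower (8.42 to 13.9). AP3S2 was higher, with 1683 counts in the SNHG15 library against 757 in the vector library (2.57-fold, 2.36 to 2.81), and so was ARPIN, with 713 counts against 501. The share of the model was 2.88% (2.25 to 3.62) in SNHG15 cells and 41.2% (39.1 to 43.3) in vector cells. The locus had a ratio of 1.33 (1.26 to 1.41), and 1 exonic base of the model was its own.

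ATP5MF-PTCD1 joins a subunit of the mitochondrial ATP synthase to a mitochondrial RNA-binding protein. It had 25 counts in the SNHG15 library against 1130 in the vector library, 39.0-fold lower (26.3 to 60.6). Its neighbours differed in direction: PTCD1 was 1.84-fold higher (1.67 to 2.02), with 1149 counts in the SNHG15 library against 723 in the vector library, and ATP5MF was 1.42-fold lower (1.36 to 1.49), with 3299 counts against 5439. The share of the model was 0.558% (0.361 to 0.822) in SNHG15 cells and 15.5% (14.7 to 16.3) in vector cells.

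A pair of the compared models had no count in SNHG15 cells. ISY1-RAB43, which joins a splicing factor to a GTPase of Golgi traffic, had 0 counts in the SNHG15 library against 293 in the vector library. With the SNHG15 library set to a floor of 3 counts it was at least 84.4-fold lower (68.2-fold by the bound of the exact interval). Its share was 0% (up to 0.305%) of 1208 locus counts in SNHG15 cells and 26.8% (24.2 to 29.6) of 1092 in vector cells. ISY1 was higher, with 907 counts in the SNHG15 library against 508 in the vector library (2.07-fold, 1.85 to 2.31), and RAB43 had 301 counts against 291.

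AC027796.3, described as a readthrough of the sugar kinase gene SHPK and the capsaicin receptor gene TRPV1, had 0 counts in the SNHG15 library against 207 in the vector library. Set to the same floor, it was at least 59.6-fold lower (48.0-fold by the exact interval). Its share was 0% (up to 0.324%) in SNHG15 cells and 17.4% (15.3 to 19.7) in vector cells. SHPK was 1.38-fold higher (1.26 to 1.51), with 1037 counts in the SNHG15 library against 870 in the vector library, and TRPV1 had 97 counts against 110. The other 14 models at 0 in the SNHG15 library had at most 16 counts in the vector library.

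The other lower models differed in the same direction as their locus or rested on few counts. ABHD14A-ACY1, which reaches the gene of aminoacylase 1, had 66 counts in the SNHG15 library against 309 in the vector library, 4.04-fold lower (3.09 to 5.36). CORO7-PAM16, which joins a coronin of the Golgi to a subunit of the mitochondrial import motor, had 61 counts in the SNHG15 library against 201 in the vector library, 2.85-fold lower (2.13 to 3.86). In these loci the other genes were lower as well, with ratios of 0.795 (0.740 to 0.853) and 0.621 (0.576 to 0.668). POC1B-GALNT4, which joins a centriole protein to an enzyme of mucin-type glycosylation, had 1 count in the SNHG15 library against 42 in the vector library, a 36.3-fold difference with an interval of 6.17 to 1467. GALNT4 went the other way, with 50 counts in the SNHG15 library against 5 in the vector library, and the sum over that locus had a ratio of 1.005 (0.766 to 1.32).

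**Figure D4:**
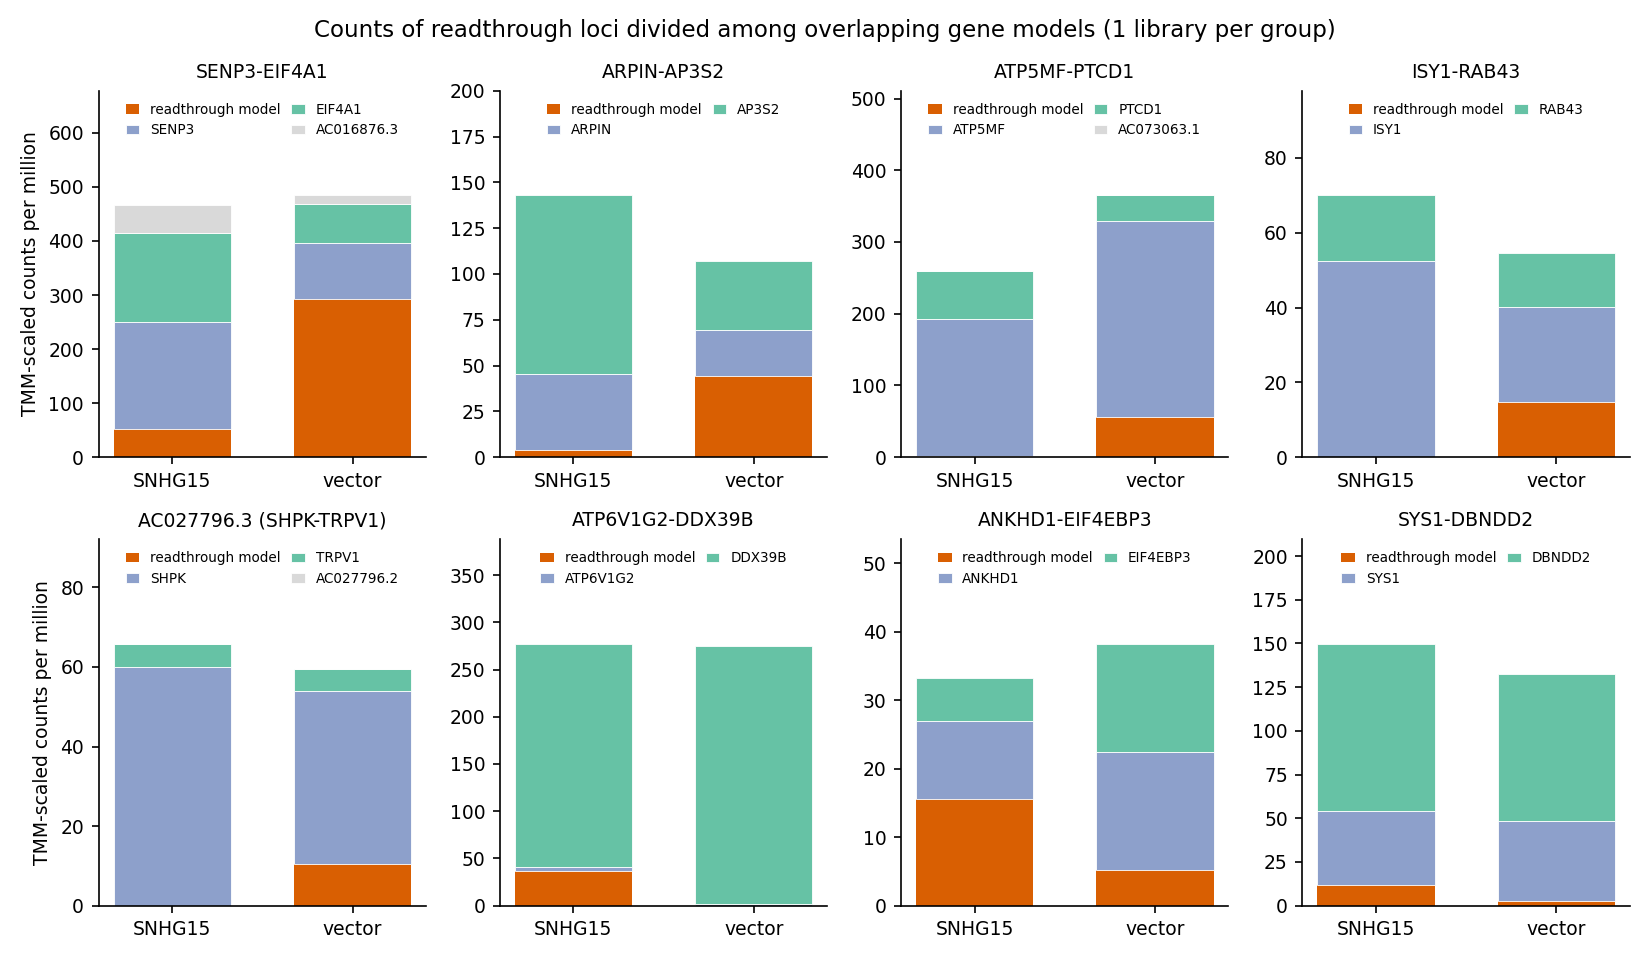
TMM-scaled CPM (vertical axis, linear, its own scale in each panel) of 8 readthrough loci in the SNHG15 library (left bar) and the vector library (right bar), 1 library each, divided into the readthrough model (orange) and the same-strand genes that overlap it (other colours). The orange part is smaller in the SNHG15 library in the first 5 panels and larger in the last 3, while the bars of a panel differ less in height. The 8 are a selection from the 14 models beyond 2-fold. Not shown are the loci of the 14 whose sums differed most in each direction, AC092143.1 (ratio 1.97) and CORO7-PAM16 (0.597).

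On the higher side, ATP6V1G2-DDX39B had 641 counts in the SNHG15 library against 0 in the vector library. The model joins a subunit of the vacuolar proton pump to DDX39B, a helicase of splicing and mRNA export, and is an NMD candidate with no exonic base of its own. With the vector library set to a floor of 3 counts it was at least 247-fold higher (201-fold by the bound of the exact interval). Its share was 13.4% (12.4 to 14.4) in SNHG15 cells and 0% (up to 0.0672%) of 5487 locus counts in vector cells. DDX39B had 4082 counts in the SNHG15 library against 5451 in the vector library, 1.15-fold lower (1.11 to 1.20), and the sum over the locus had a ratio of 1.01 (0.971 to 1.05). The other 9 models at 0 in the vector library had at most 21 counts in the SNHG15 library.

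ANKHD1-EIF4EBP3 joins an ankyrin repeat protein to a repressor of translation that binds the cap-binding factor. It had 269 counts in the SNHG15 library against 105 in the vector library, 2.97-fold higher (2.36 to 3.75). Both neighbours were lower: EIF4EBP3 had 107 counts in the SNHG15 library against 316 in the vector library, 2.55-fold lower (2.04 to 3.21), and ANKHD1 had 197 counts against 343, 1.504-fold lower (1.26 to 1.80). The share of the model was 46.9% (42.8 to 51.1) in SNHG15 cells and 13.7% (11.4 to 16.4) in vector cells.

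AC092143.1, the readthrough of the melanocortin receptor gene MC1R and the beta-tubulin gene TUBB3, was higher together with its locus. It had 1940 counts in the SNHG15 library against 811 in the vector library, 2.77-fold higher (2.55 to 3.01). TUBB3 had 5410 counts in the SNHG15 library against 3298 in the vector library, 1.90-fold higher (1.82 to 1.98), and MC1R 903 counts against 729. The share of the model was 23.5% (22.6 to 24.4) in SNHG15 cells and 16.8% (15.7 to 17.8) in vector cells.

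The remaining higher models held small shares of their loci. SYS1-DBNDD2, an NMD candidate that starts at a gene of Golgi protein targeting, had 201 counts in the SNHG15 library against 48 in the vector library, 4.85-fold higher (3.52 to 6.79). TMED7-TICAM2, which joins a cargo receptor of the secretory pathway to an adaptor of Toll-like receptor signalling, had 81 counts in the SNHG15 library against 25 in the vector library, 3.75-fold higher (2.37 to 6.13). HNRNPUL2-BSCL2, an NMD candidate that reaches the gene of the lipid droplet protein seipin, had 76 counts in the SNHG15 library against 26 in the vector library, 3.38-fold higher (2.14 to 5.51). Their shares were 7.78%, 12.2% and 1.27% in SNHG15 cells, against 1.82%, 4.38% and 0.333% in vector cells. TICAM2 alone had 0 counts in the SNHG15 library against 15 in the vector library.

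The share of the locus counts does not depend on the scaling between libraries. It was compared at 117 loci with at least 50 counts in each library. The share was under 5% at 66 loci in SNHG15 cells and 63 in vector cells, and over 50% at 7 and 6 loci. It differed by at least 10 percentage points with separate intervals at 17 loci (14.5%), 4 of them higher and 13 lower in the SNHG15 library. Among 2349 other genes with a same-strand overlap, 6.64% shifted by the same rule, 79 higher and 77 lower. Restricted to mean shares of 10 to 90%, where a shift of this size has room, 14 of 42 readthrough loci (33.3%) and 151 of 647 other genes (23.3%) shifted. Differences of the share ran from −49.0 points at SENP3-EIF4A1 to 33.2 points at ANKHD1-EIF4EBP3. At 79 loci the difference stayed within 5 points, and at 36 within 1 point.

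Some loci shifted although the model itself was not beyond 2-fold. AL133352.1, the readthrough of the complex I gene NDUFB8 and the coat protein gene SEC31B, had 924 counts in the SNHG15 library against 2109 in the vector library, 1.97-fold lower (1.82 to 2.13). Its share was 28.9% (27.3 to 30.5) and 43.2% (41.8 to 44.6). PPAN-P2RY11, which joins a ribosome biogenesis factor to a purine receptor, had 529 counts in the SNHG15 library against 1109 in the vector library, 1.81-fold lower (1.63 to 2.01). Its share was 32.2% (29.96 to 34.5) and 46.8% (44.7 to 48.8). In these loci the other genes together had ratios of 0.951 (0.900 to 1.01) and 1.02 (0.940 to 1.11). JMJD7-PLA2G4B, which joins a hydroxylase to a phospholipase, had 164 counts in the SNHG15 library against 235 in the vector library. It held 70.4% (64.1 to 76.2) of its locus in SNHG15 cells and 90.04% (85.7 to 93.4) in vector cells, with JMJD7 at 58 counts in the SNHG15 library against 18 in the vector library. ST20-MTHFS, which reaches an enzyme of folate metabolism, had 89 counts in the SNHG15 library against 133 in the vector library, and its share was 27.0% in SNHG15 cells and 37.4% in vector cells.

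Shifts on few counts were seen in AL049697.1, the readthrough that ends in the sialic acid transporter gene SLC35A1 (12 counts in the SNHG15 library against 40 in the vector library), and in CENPS-CORT (13 counts against 44). ARMCX5-GPRASP2 had 23 counts in the SNHG15 library against 7 in the vector library, with shares of 20.7% and 3.30%. A pair of models of pseudogene families shifted as well: DTX2P1-UPK3BP1-PMS2P11 had 20 counts in the SNHG15 library against 5 in the vector library, and PKD1P6-NPIPP1 had 137 counts against 224. Their sequences have near-identical copies elsewhere, so their counts are uncertain for a further reason.

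**Figure D5:**
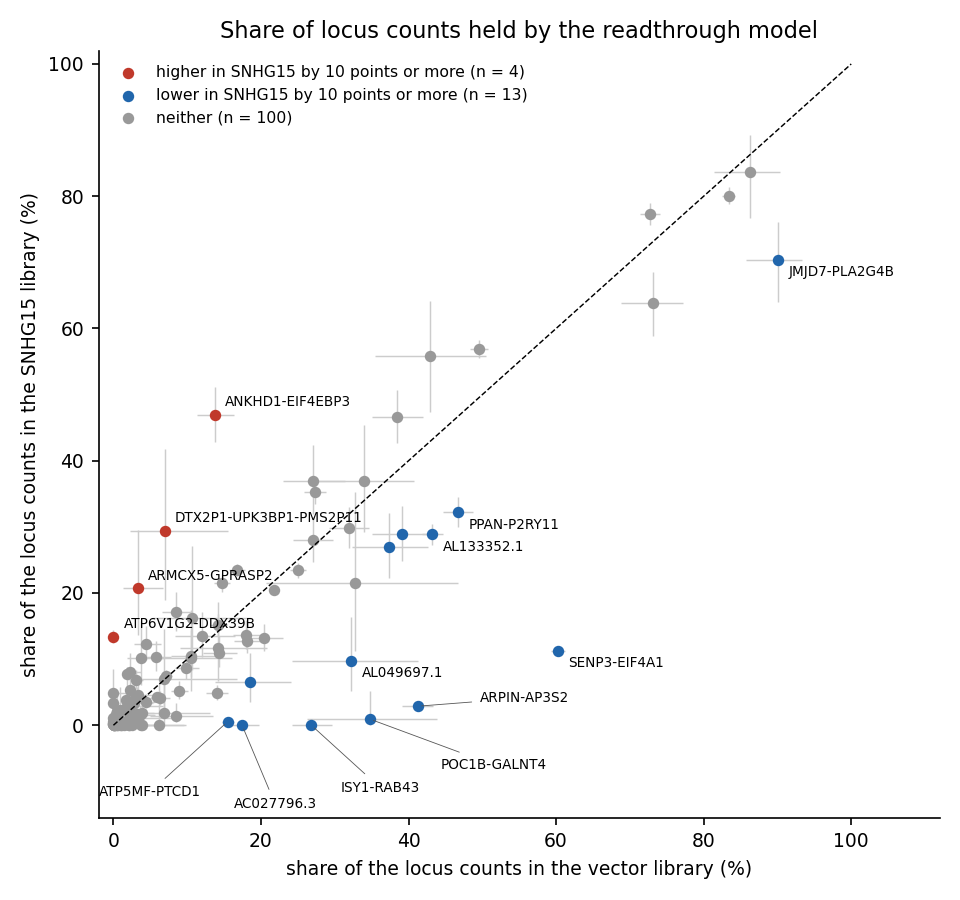
Share of the locus counts held by the readthrough model in the SNHG15 library (vertical axis, percent) against its share in the vector library (horizontal axis, percent) at 117 loci, with exact binomial 95% intervals as grey lines. Of the 17 shifted loci, 4 (red) lie above the dashed line of equal shares and 13 (blue) below it, and those shifted most are named.

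Pooled over all loci, with each gene counted once, readthrough models held 11.4% (11.2 to 11.5) of the locus counts in SNHG15 cells and 13.8% (13.7 to 13.9) in vector cells. Without the SENP3-EIF4A1 locus the pooled shares were 11.4% and 12.2%. The NMD candidates held 19.6% (19.2 to 19.97) of their loci in SNHG15 cells and 28.4% (28.0 to 28.8) in vector cells. Without SENP3-EIF4A1 this gap too was smaller, with shares of the NMD candidates at 21.5% in SNHG15 cells and 22.3% in vector cells. The other models held 9.45% (9.32 to 9.58) in SNHG15 cells and 10.0% (9.92 to 10.2) in vector cells.

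Some neighbours were beyond 2-fold where the readthrough model was too rare to compare. Of the 10 overlapping genes beyond 2-fold, PAK6, a kinase gene, had 18 counts in the SNHG15 library against 400 in the vector library, 19.2-fold lower (12.0 to 32.7), while BUB1B-PAK6 had 0 counts in the SNHG15 library against 4. TGIF2, a repressor of TGF-beta signalling, had 1007 counts in the SNHG15 library against 110 in the vector library, 10.6-fold higher (8.70 to 13.0), while TGIF2-RAB5IF had 12 counts against 7. SIRPB1, an overlapping gene of AL049634.2, had 56 counts in the SNHG15 library against 243 in the vector library, and LRRC8D, an overlapping gene of AC093423.3, had 49 against 251. The other 6 genes were AP3S2, EIF4A1, AC016876.3, GALNT4, EIF4EBP3 and JMJD7, described above with their models.

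Messages of the machinery that ends transcription, cleaves the precursor or degrades faulty transcripts mostly lay within 2-fold. All 20 genes of cleavage and polyadenylation were compared, 0 of them beyond 2-fold, with a median log2 ratio of −0.01. SYMPK, the scaffold of the complex, had 4391 counts in the SNHG15 library against 5755 in the vector library. CPSF1, a subunit of the factor that recognises polyadenylation signals, had 3335 counts in the SNHG15 library against 4255 in the vector library. Of 22 genes of transcription termination, 0 were beyond 2-fold (median 0.03). The phosphatase PPP1CA had 8283 counts in the SNHG15 library against 14048 in the vector library, 1.47-fold lower (1.43 to 1.51). In the same list, the elongation factor SUPT5H had 5062 counts in the SNHG15 library against 6231 in the vector library. Of 6 genes of the U1 particle and its partners, which restrain premature cleavage, 0 were beyond 2-fold (median 0.15). SNRNP70 had 6618 counts in the SNHG15 library against 8258 in the vector library, and SNRPC 2502 against 3016.

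Of 16 genes of NMD, 0 were higher and 1 was lower beyond 2-fold, with a median log2 ratio of 0.05. The exception was SMG8, a regulator of the kinase that phosphorylates the helicase UPF1, with 80 counts in the SNHG15 library against 291 in the vector library, 3.14-fold lower (2.45 to 4.08). UPF1 itself had 3335 counts in the SNHG15 library against 4593 in the vector library. A list of 16 genes with 1 beyond 2-fold is close to the 4.65% of all genes, and no relation between these messages and the readthrough models was tested.

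In the authors' deposited table, 35 of the 128 models (27.3%) were called different, 18 higher and 17 lower in the SNHG15 library. The same table called 8.15% of all 19029 genes, 4.88% higher and 3.27% lower. Its calls included all 14 models beyond 2-fold, and 13 of its 35 models had a mean under 1 CPM. These calls come from the same counts and the same 2 libraries.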

How the data were processed

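RNA-seq of 2 BT549 libraries was analysed from the authors' deposited table of all genes. The deposited counts are per gene, from columns headed as counts, and were used as whole numbers. The headers do not say whether they are raw or apportioned among overlapping genes, and the counting intervals assume raw counts. FPKM values, log2 ratios and p-values were also deposited by the authors, per the file headers. FPKM values were used in alternatives, since the gene lengths behind them exceeded merged exons by a median factor of 1.39. The deposited log2 ratios and p-values were not used beyond the authors' calls. Per the submitters' processing notes, hg38 was the build. The aligner, the counter, its treatment of overlapping genes and the annotation release are not given in the sources used here. Groups follow the genotype in the labels, since the titles misspell SNHG15.

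Readthrough models were rows with readthrough in the description. Overlapping genes shared at least 1 base of the deposited locus on the same strand. Named partners were those whose symbol, or a synonym of it in RefSeq, is part of the model's symbol or description. TMM factors (1.04 in the SNHG15 library, 0.960 in the vector library) were computed in R 4.3.3 with edgeR 4.0.16. Ratios of CPM have exact conditional-binomial (Clopper-Pearson) intervals and shares exact binomial intervals. Log2 ratios used a prior count of 2. The floor of 3 counts equals 0.174 CPM in SNHG15 cells and 0.150 CPM in vector cells. Exons and junctions came from GENCODE 29 on GRCh38, and the functions were tested on simulated data. A comparison of the encoded proteins was not made.

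The models, lists and rules were chosen with earlier results of these data known. Named were the models beyond 2-fold, the 10 with the most counts, those with shifted shares, their overlapping genes, and of each machinery list the genes beyond 2-fold or else the 2 with the most counts. UPF1, BUB1B-PAK6 and TGIF2-RAB5IF were named after their values were seen. Alternatives were scaling by library totals or by DESeq2 1.42.0, other filters, point ratios, other prior counts, narrower definitions of the locus and FPKM. Values per kilobase of merged exons and without SENP3-EIF4A1 were added after seeing the data.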

Additional observations from a re-analysis of the deposited data

How the results depend on the processing

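The 6 higher and 8 lower models were 6 and 7 when scaled by library totals, and 6 and 8 by DESeq2 size factors. With a minimum of 5 CPM they were 4 and 7 of 39. In these settings 19.4%, 20.9% and 28.2% of the models were beyond 2-fold, against 4.66%, 4.61% and 4.08% of all genes compared. Library totals move the median log2 ratio of all genes to 0.13 and that of the models to −0.13, below that of all genes as in the other scalings. The counts moved to 10 higher and 13 lower of 128 without a filter on low counts, or 18% against 4.1% of all 19029 genes. By point ratios they moved to 11 higher and 12 lower, or 34.3%, where 10.3% of all genes were past 2-fold. The median log2 ratio of the models ran from −0.38 to −0.13 over these settings and prior counts of 0.5 and 10. Shifted loci numbered 17 with named partners, 16 with an overlap of at least 50% of the shorter locus and 12 with 200 locus counts. They numbered 24 (7 higher, 17 lower) per kilobase of merged exons and 32 (11 higher, 21 lower) by FPKM sums, both without a counting interval. At 20 points they numbered 7 (2 higher, 5 lower). The pooled shares in the SNHG15 and the vector library were 11.6% and 14.03% with named partners, 12.4% and 15.4% with the overlap of at least 50% of the shorter locus, and 19.3% and 21.1% by FPKM. They were 15.01% and 16.3% per kilobase, 10.3% and 13.0% without NME1-NME2, and 11.4% and 12.2% without SENP3-EIF4A1. The NMD candidates stood at 21.5% and 22.3% without SENP3-EIF4A1. The SNHG15 share was below the vector share in each of these settings, and the cause of the moves was not tested. No paired analysis was possible because each group held 1 library. Low abundance, a mean under 1 CPM, leaves 61 of the 128 models without a comparison.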

Other observations

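Among the 61 models too rare to compare, 27 had more counts in the SNHG15 library than in the vector library, 32 had fewer and 2 had equal counts. These counts were not scaled for library size, and the vector library held more counts in total. Over the 67 models compared, the counting interval of the ratio lay above 1 in 18, below 1 in 27 and held 1 in 22, and 29 ratios were within 1.5-fold. The shares of 52 loci had separate counting intervals whatever the size of the difference, 25 higher and 27 lower in the SNHG15 library. These counts of intervals were not made over all genes or over the other genes with a same-strand overlap. They therefore show nothing particular to the readthrough models. Of the 117 loci whose shares were compared, the readthrough share was 0 at 15 in the SNHG15 library and at 8 in the vector library. This count too was not made over the other genes with a same-strand overlap.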
